A study of Mus musculus with 12 samples.

Results

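The MAP kinase phosphatases are dual-specificity phosphatases that switch off MAP kinases. The 8 genes described here, Dusp1, Dusp2, Dusp4, Dusp5, Dusp6, Dusp8, Dusp10 and Dusp16, were chosen by gene symbol, with earlier results of these data known. They were 8 of the 23329 genes listed in the count tables, and all 8 were among the 13038 genes that passed the filter on low values and entered the test. PolyA mRNA was sequenced from cultured stromal cells of the mouse small intestine, labelled intestinal myofibroblasts, in 12 libraries. The 4 groups, with 3 libraries each, were embryonic (E14.5) cells with PBS, embryonic cells with LPS, adult cells with PBS and adult cells with LPS. LPS, the outer membrane lipid of Gram-negative bacteria and the ligand of TLR4, came from Escherichia coli O111:B4 and was given at 10 µg/µl (as labelled) for 6 h, and PBS was the vehicle. The study kept its mouse lines on a C57BL6/J background, no transgene or deletion was named for these groups, and an adult age in weeks was not given in the sources used here. Embryonic cultures were each made from pooled embryos, cells were plated without sorting after removal of the epithelium, and they were used at passages 2 to 3, so that each library is a mixed culture and not a pure cell type.

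MAP kinases (ERK, JNK and p38) are activated by phosphorylation of a threonine and a tyrosine in their activation loop. MAP kinase phosphatases remove both phosphates. Several of these phosphatase genes are themselves immediate targets of MAP kinase signalling, which makes them negative feedback regulators of MAP kinases. In LPS-stimulated myeloid cells DUSP1 limits how much cytokine is made, a role that does not extend to every member. Members differ in where they act and in what they act on: DUSP1, DUSP2, DUSP4 and DUSP5 are inducible nuclear enzymes, DUSP6 is a cytoplasmic enzyme selective for ERK, and DUSP8, DUSP10 and DUSP16 prefer JNK and p38.

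The promoters of the 4 members that passed the test under LPS in the fit of all 12 libraries, without or with the replicate block, are shown first, so that their upstream sequence stands beside their values. Each is the 250 bases before the transcript start in RefSeq (GRCm38.p6), read 5′ to 3′ on the gene's own strand, and capitals mark the motifs found.
Dusp1 (chr17:26508473-26508722, minus strand): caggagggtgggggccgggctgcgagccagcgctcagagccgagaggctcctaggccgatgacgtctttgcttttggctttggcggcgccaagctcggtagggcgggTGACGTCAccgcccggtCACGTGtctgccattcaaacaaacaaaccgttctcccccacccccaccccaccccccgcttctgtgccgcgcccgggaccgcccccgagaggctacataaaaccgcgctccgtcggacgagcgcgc
Dusp2 (chr2:127335909-127336158, plus strand): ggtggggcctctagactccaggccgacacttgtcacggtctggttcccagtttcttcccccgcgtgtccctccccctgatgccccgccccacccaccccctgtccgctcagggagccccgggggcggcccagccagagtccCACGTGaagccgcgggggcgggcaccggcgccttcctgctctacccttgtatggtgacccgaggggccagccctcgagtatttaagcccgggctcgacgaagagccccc
Dusp10 (chr1:184034131-184034380, plus strand): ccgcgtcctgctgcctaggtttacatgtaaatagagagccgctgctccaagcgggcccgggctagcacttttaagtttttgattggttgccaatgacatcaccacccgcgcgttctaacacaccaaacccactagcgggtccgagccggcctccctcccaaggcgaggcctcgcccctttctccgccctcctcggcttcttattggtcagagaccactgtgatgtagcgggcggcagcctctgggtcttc
Dusp16 (chr6:134792629-134792878, minus strand): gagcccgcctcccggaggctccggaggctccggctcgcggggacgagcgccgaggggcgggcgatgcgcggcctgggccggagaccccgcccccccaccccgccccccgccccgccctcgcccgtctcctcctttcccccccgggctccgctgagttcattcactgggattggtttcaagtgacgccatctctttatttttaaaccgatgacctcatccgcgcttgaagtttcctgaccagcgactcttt

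A total of 7 motifs were searched on both strands of these windows and of all 32817 promoters in the table, of which 7 belonged to members. The Dusp1 window held a cyclic AMP response element (TGACGTCA, first base at -143 from the start, present in 1.55% of all promoters) and an E-box (CACGTG at -126, 6.02% of promoters). In the Dusp2 window the only match was an E-box at -109. Dusp10 and Dusp16 held none of the 7 motifs in these windows. Among the members not printed, Dusp8 held the cyclic AMP response element at -107 and again at -63, in a window that lies inside the gene span given below and not before its first base. Dusp5 held a kappaB motif (GGG and CC around a central TT, 4.11% of promoters) at -90 that overlapped the first of its CArG boxes at -82 and -72 (1.47% of promoters). Dusp6 held none. The AP-1 motif (TGANTCA, 6.75%), the GAS motif (TTCNNNGAA, 7.01%) and the ISRE (a repeat of GAAA, 2.97%) were in none of the 7 members' windows. These matches describe letters in a short window, and binding was not measured.

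In RefSeq on GRCm38.p6, Dusp1 lies on the minus strand at chr17:26505591-26508472, Dusp2 on the plus strand at chr2:127336159-127338377, Dusp4 on the plus strand at chr8:34807610-34819894 and Dusp5 on the plus strand at chr19:53529145-53541809, each with 4 exons. The gene of the cytoplasmic member, Dusp6, has 3 exons at chr10:99263231-99267489 (plus). Dusp8 (7 exons) lies at chr7:142079487-142095907 (minus) and Dusp10 (4 exons) at chr1:184034381-184075636 (plus). Dusp16 (up to 7 exons in its 2 transcripts) lies at chr6:134715468-134807063 (minus), so that the Dusp16 window printed above precedes the start of a transcript inside the gene span. Antisense genes overlap Dusp5 and Dusp16, and a divergent long non-coding RNA overlaps Dusp8. Counting used strand, and opposite-strand counts were at most 2.60% of any member's counts in any library.

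Library totals ranged from 18850224 to 32672370 counts over genes, so that 3 counts corresponded to 0.0897 to 0.145 CPM (counts scaled to library size with TMM factors). Stromal markers were high in every library: 7 of 7 fibroblast genes summed to 8104 to 23480 CPM, led by Col1a1, and 6 of 6 smooth muscle and myofibroblast genes to 13620 to 29710 CPM, led by Acta2. The cultures were not free of other cells. The 15 macrophage genes, led by Lyz2, summed to 225 to 3262 CPM in embryonic and 18.3 to 226 CPM in adult libraries, and the 6 endothelial genes reached 1791 CPM in adult library 2. Of the 7 lymphocyte genes Cd3g and Cd2 were at 0 in every group, and the list summed to at most 1.48 CPM. Libraries with the same number within a stage deviated together from their group means, so that a fit with the replicate number as a block within each stage (called the blocked fit) is given wherever it changed a call. Adjusted p-values come from the quasi-likelihood test of edgeR unless another test is named. They were adjusted by the Benjamini-Hochberg method across the 13038 genes, and a gene was called at an adjusted p under 0.05.

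Among the 8 genes, embryonic LPS raised Dusp2 most, from under 1 CPM to as much as 109 CPM, and it was the only member called in embryonic cells without the block. With the block, Dusp10 and Dusp16 also rose in embryonic cells and Dusp1 fell in adult cells. Dusp4, Dusp5, Dusp6 and Dusp8 were called in neither stage by either fit. The count was therefore 1 of 8 members in embryonic cells, where 2.75% of all tested genes were called, and 0 of 8 in adult cells, where 0.606% were called. In the blocked fit it was 3 of 8 beside 12.5% of all genes in embryonic cells, and 1 of 8 beside 6.20% in adult cells. Without the block, 3 members had an unadjusted p under 0.05 in embryonic cells, beside 10.8% of tested genes, and 2 in adult cells, beside 5.58%. With the block, 7 members had one in embryonic cells, beside 3520 of 13038 tested genes, and 4 in adult cells, beside 2332. DESeq2 called 2 members in embryonic cells, beside 5.26% of its genes, and 1 in adult cells, beside 2.26%.

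**Figure D1:**
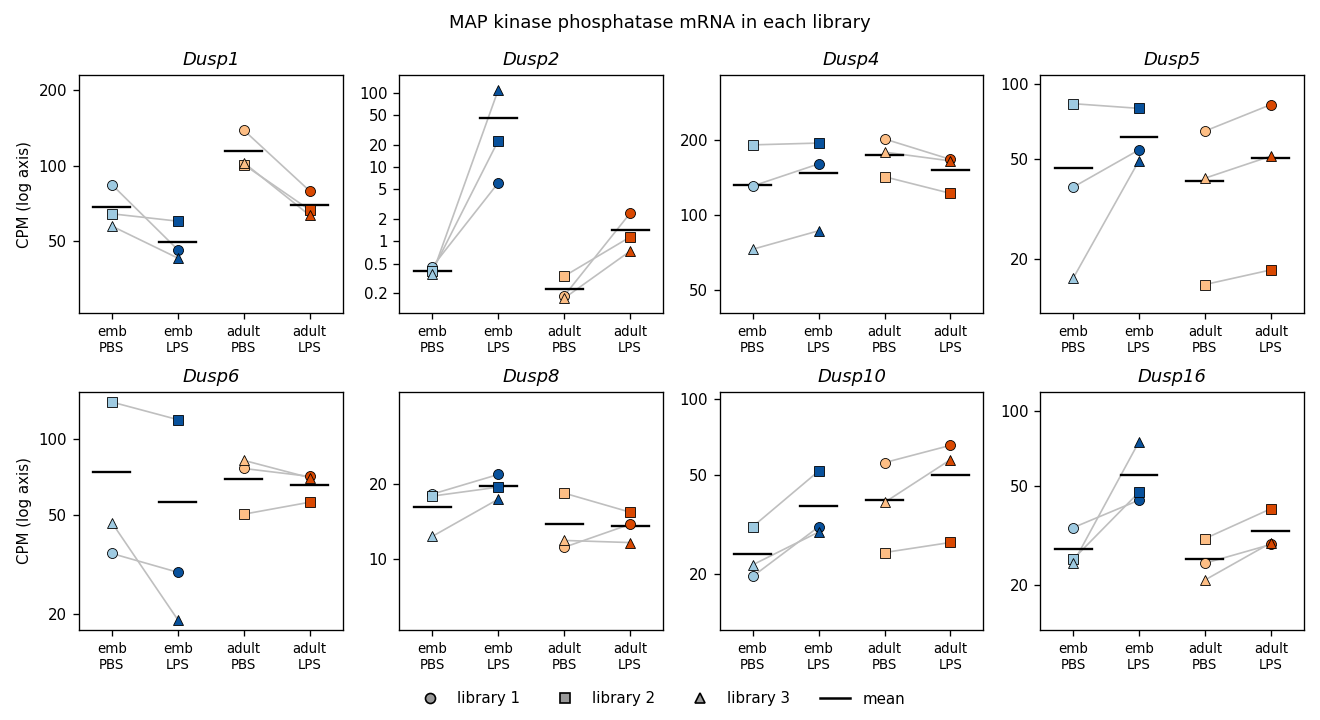
CPM (log axis) of each phosphatase gene in the 12 libraries, by stage (emb, embryonic) and treatment. Symbols give the library number, grey lines join same-numbered libraries of a stage and black bars are group means, n = 3. Dusp2 rose from 0.359 to 0.452 CPM with PBS to 6.10 to 109 CPM with LPS in embryonic cells, and embryonic library 2 is the highest for Dusp6 in both treatments.

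Dusp1, an immediate-early gene whose nuclear product dephosphorylates p38 and JNK and restrains cytokine production after LPS, had the opposite direction to Dusp2. In adult cells it measured 139, 101 and 103 CPM with PBS and 79.3, 66.6 and 63.3 CPM with LPS in libraries 1, 2 and 3. In embryonic cells it measured 84.0, 64.2 and 57.4 CPM with PBS and 46.1, 60.0 and 42.7 CPM with LPS. All 3 adult LPS libraries lay below all 3 adult PBS libraries, whereas the embryonic groups overlapped through library 2. The LPS library was the lower of the pair in all 6 same-numbered pairs, a pattern seen in 9.35% of tested genes. The adult difference was -0.71 (log2, SE 0.19, adjusted p = 0.209, edgeR), a PBS level 1.64-fold the LPS level. With the block it was -0.70 (SE 0.13, adjusted p = 0.0196) and passed, and DESeq2 called it as well (adjusted p = 0.0320). That call depended on the libraries kept, since leaving out number 1 or number 3 gave an adjusted p of 0.0930 or 0.0679. The embryonic difference was smaller, -0.47 (SE 0.19, adjusted p = 0.381), and also missed the threshold with the block (-0.46, SE 0.13, adjusted p = 0.0585). A single time of 6 h was sampled, so that any earlier change in Dusp1 mRNA was not measured.

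Dusp2 encodes a nuclear phosphatase best known from activated leukocytes. It measured 0.452, 0.396 and 0.359 CPM in embryonic PBS libraries 1, 2 and 3, which is 12 to 15 counts each. With LPS the same numbers measured 6.10, 22.6 and 109 CPM, and no LPS library came near a PBS library. The increase was 6.82 on the log2 scale (SE 1.04, adjusted p = 0.00822, edgeR), and 6.32 (SE 0.66, adjusted p = 0.000643) with the block. The 3 pair differences were 3.57, 5.60 and 7.99, so that the pairs agreed in direction but differed widely in size. Without embryonic LPS library 3 the increase was 5.09. Without embryonic PBS library 1 the adjusted p was 0.0570, and with the 2 embryonic groups fitted alone it was 0.139.

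In adult cells Dusp2 measured 0.183, 0.337 and 0.170 CPM with PBS (5 to 7 counts) and 2.38, 1.14 and 0.735 CPM with LPS (17 to 73 counts). All 3 LPS libraries were above all 3 PBS libraries, yet the difference of 2.65 (SE 1.01, adjusted p = 0.636, edgeR) was not called, nor was it with the block (2.61, SE 0.88, adjusted p = 0.162). The test of the stage difference in the response itself gave 4.17 on the log2 scale (SE 1.42, adjusted p = 1.00), and 3.72 (SE 1.41, adjusted p = 0.481) with the block. No tested gene was called for this interaction without the block (0%), where 293 genes had an unadjusted p under 0.05 and DESeq2 called 25. In the blocked fit 0.844% were called and none of them was a member. A larger response of Dusp2 in embryonic than in adult cells was therefore not established after adjustment. Between the LPS groups themselves, Dusp2 was 5.00 higher on the log2 scale in embryonic cells (SE 0.94, adjusted p = 0.0198), and 3.29 higher without embryonic LPS library 3.

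The macrophage markers differed in level between the libraries that set the Dusp2 values. Their sum was 224.5, 1179 and 2467 CPM in embryonic LPS libraries 1, 2 and 3, the same order as Dusp2 in that group. In embryonic PBS it was 278.7, 520 and 3262 CPM, where Dusp2 was lowest in the library with the highest sum. In the adult groups the sum was 208.0, 22.1 and 52.5 CPM with PBS and 225.5, 18.3 and 54.1 CPM with LPS. All 15 markers were above the 3-count level in at least 1 library of every group, and none was at 0 in all libraries of a group. In bulk cultures fewer cells of a type and less RNA per cell cannot be told apart, and the part of macrophages in the Dusp2 result was not tested.

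**Figure D2:**
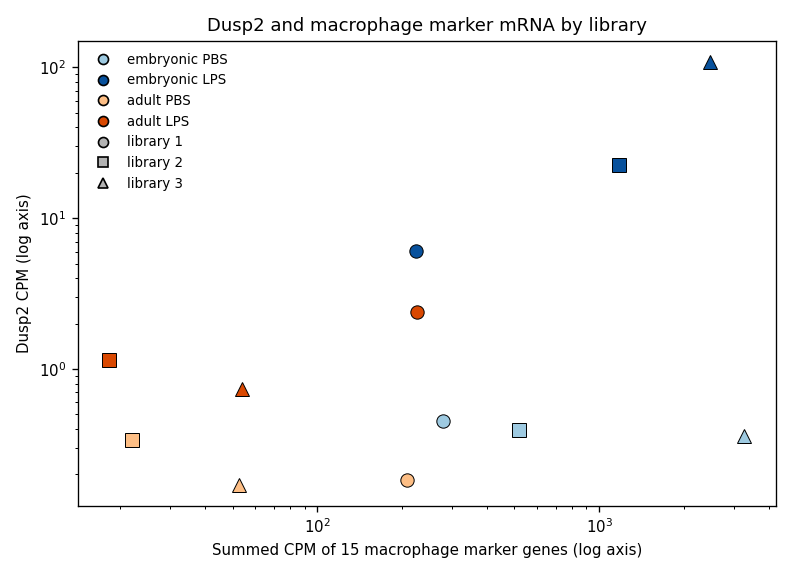
Dusp2 CPM against the summed CPM of 15 macrophage marker genes in the 12 libraries (both axes log), coloured by group and shaped by library number. Embryonic PBS library 3 has the highest marker sum, 3262 CPM, with 0.359 CPM of Dusp2, and embryonic LPS library 3 has 2467 CPM with 109 CPM of Dusp2.

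The 3 genes whose log2 CPM pattern over the 12 libraries, centred on its own mean, was most like that of Dusp2 were Hdc, Ifnb1 and Fpr2. Their root mean square differences from Dusp2 were 0.516, 0.654 and 0.663 on the log2 scale, where the Dusp2 pattern itself had a root mean square of 2.66 around its mean. Hdc, which encodes histidine decarboxylase, averaged 0.0705 CPM in embryonic PBS, 9.71 CPM in embryonic LPS, 0.0405 CPM in adult PBS and 0.328 CPM in adult LPS. Ifnb1, the interferon beta gene, was at 0 in both PBS groups and averaged 12.7 CPM in embryonic LPS and 0.507 CPM in adult LPS. Fpr2, a formyl peptide receptor gene, averaged 0.0799 CPM in embryonic PBS and 12.8 CPM in embryonic LPS. They were picked for this likeness, so that sharing the Dusp2 pattern is not a finding about them.

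Dusp4, a nuclear phosphatase of ERK and JNK, was the most abundant member per length in 10 of the 12 libraries. In embryonic libraries it measured 131, 191 and 73.0 CPM with PBS and 160, 194 and 86.5 CPM with LPS. In adult libraries it measured 201, 142 and 179 CPM with PBS and 167, 122 and 165 CPM with LPS. The groups overlapped in both stages, but the pairs did not point the same way: LPS was the higher in 3 of 3 embryonic pairs and the lower in 3 of 3 adult pairs. Such a split was found in 2.68% of tested genes. The pair differences were small, 0.02 to 0.29 in embryonic and -0.27 to -0.12 in adult cells on the log2 scale, beside a range of 1.39 between the embryonic PBS libraries and 0.50 between the adult ones. None of the differences was called (embryonic 0.16, SE 0.36, adjusted p = 0.999, and adult -0.20, SE 0.36, adjusted p = 1.00, edgeR). With the block the SE was smaller, and neither was called (embryonic 0.19, SE 0.07, adjusted p = 0.152, and adult -0.20, SE 0.07, adjusted p = 0.189). The stage difference of the response was 0.36 (SE 0.50, adjusted p = 1.00) and, with the block, 0.39 (SE 0.10, adjusted p = 0.254).

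Dusp5, a nuclear phosphatase selective for ERK, differed more between cultures than between treatments. Its embryonic values were 38.7, 83.6 and 16.7 CPM with PBS and 54.6, 80.0 and 49.4 CPM with LPS. The adult values were 64.9, 15.8 and 42.1 CPM with PBS and 82.8, 18.1 and 51.6 CPM with LPS. Within each stage the PBS and LPS groups overlapped. The PBS libraries alone spanned 2.32 (embryonic) and 2.03 (adult) on the log2 scale, whereas the adult pairs differed by 0.19 to 0.35. The LPS difference was 0.41 in embryonic cells (SE 0.68, adjusted p = 0.999, edgeR) and 0.31 in adult cells (SE 0.68, adjusted p = 1.00). With the block it was 0.64 (SE 0.25, adjusted p = 0.151) and 0.28 (SE 0.25, adjusted p = 0.659), and neither was called. Adult library 2, the lowest for Dusp5 in both treatments, also had the highest endothelial marker sum, 1791 CPM with PBS and 1720 CPM with LPS. Its fibroblast sum was the lowest of the adult libraries, 8816 CPM with PBS and 8355 CPM with LPS. So were its smooth muscle and macrophage sums. The part of these cell types in its Dusp5 level was not tested.

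Dusp6, the cytoplasmic ERK phosphatase and a common readout of ERK output, behaved in the same way. Embryonic libraries 1, 2 and 3 measured 35.0, 141 and 46.4 CPM with PBS and 29.4, 120 and 19.0 CPM with LPS. Adult libraries measured 76.5, 50.2 and 82.4 CPM with PBS and 71.1, 56.1 and 70.3 CPM with LPS. The embryonic libraries numbered 2 held the highest values of all 12, and the treatments overlapped in both stages. LPS was the lower in 3 of 3 embryonic pairs, but the difference of -0.40 (SE 0.67, adjusted p = 0.999, edgeR) was not called, nor was the blocked -0.58 (SE 0.20, adjusted p = 0.102). In adult cells it was -0.08 (SE 0.67, adjusted p = 1.00), with 1 pair higher and 2 lower.

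Of the members that act mainly on JNK and p38, Dusp8 was the least changed. It measured 18.2, 17.9 and 12.4 CPM in embryonic PBS and 21.8, 19.4 and 17.4 CPM in embryonic LPS libraries. In adult libraries it measured 11.2, 18.4 and 11.9 CPM with PBS and 13.8, 15.4 and 11.7 CPM with LPS. The embryonic pairs were all higher with LPS, by 0.12 to 0.49 on the log2 scale, and the adult pairs were mixed. Neither difference was called (embryonic 0.28, SE 0.23, adjusted p = 0.870, and adult -0.02, SE 0.23, adjusted p = 1.00, edgeR).

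Dusp10, which encodes a phosphatase of JNK and p38, rose in embryonic cells in the blocked fit. Its embryonic values were 19.6, 30.9 and 21.8 CPM with PBS and 30.9, 51.6 and 29.4 CPM with LPS. The groups overlapped, although each LPS library was higher than the PBS library of the same number. The adult values were 55.8, 24.4 and 38.7 CPM with PBS and 65.4, 26.8 and 57.3 CPM with LPS. Library 2 was the highest embryonic and the lowest adult library in both treatments. Adult library 2 is the one with the high endothelial and low fibroblast marker sums. Embryonic library 2 had the lowest fibroblast sum of its stage, 8812 CPM with PBS and 8104 CPM with LPS. The part of these cell types was not tested. The embryonic increase was 0.63 (SE 0.39, adjusted p = 0.727, edgeR) without the block and 0.61 (SE 0.11, adjusted p = 0.00792), a 1.53-fold level, with it. Leaving out number 1 from the blocked fit gave an adjusted p of 0.101. The adult difference of 0.33 (SE 0.39, adjusted p = 1.00) was not called, nor was the blocked 0.31 (SE 0.10, adjusted p = 0.152).

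Dusp16, whose product shuttles between nucleus and cytoplasm and prefers JNK, was about 1.98-fold higher with LPS in embryonic cells. It measured 34.1, 25.5 and 24.5 CPM with PBS and 43.9, 47.2 and 75.1 CPM with LPS, and the groups did not overlap. The 3 LPS libraries had the order of their macrophage marker sums, whereas the 3 PBS libraries had the reverse order, and the part of macrophages in this result was not tested. The difference was 0.98 (SE 0.24, adjusted p = 0.0679, edgeR), and 0.96 (SE 0.20, adjusted p = 0.0194) with the block. It was called by DESeq2 (adjusted p = 0.00967) and by edgeR's likelihood ratio test (adjusted p = 0.0104). In the blocked fit it was lost without number 2 (adjusted p = 0.0834) or number 3 (adjusted p = 0.0545). The adult values were 24.6, 30.8 and 21.0 CPM with PBS and 29.2, 40.5 and 29.6 CPM with LPS, which overlapped, and the difference of 0.38 (SE 0.24, adjusted p = 1.00) was not called. The test of the stage difference in this response was 0.60 (SE 0.34, adjusted p = 1.00).

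In embryonic cells 2 of 8 members, Dusp2 and Dusp16, lay above PBS in all LPS libraries without overlap, beside 7.58% of tested genes, and 0 lay below, beside 4.02%. In adult cells Dusp2 was the 1 member of 8 that lay above without overlap, beside 9.10%, and Dusp1 the 1 that lay below, beside 5.39%. LPS was above PBS in all 6 same-numbered pairs for 3 members, Dusp2, Dusp10 and Dusp16, beside 13.0% of tested genes. Dusp1 was the only member with the reverse pattern. The range between PBS cultures exceeded every pair difference for 4 members in embryonic cells and for 6 in adult cells.

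**Figure D3:**
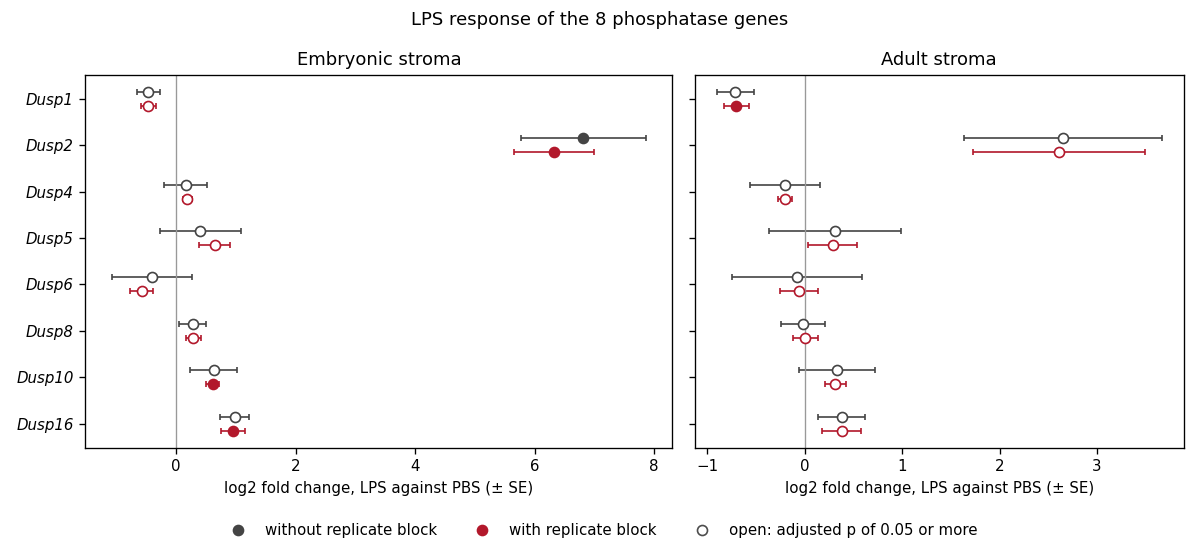
Fitted log2 fold change of LPS against PBS with its SE for the 8 genes in embryonic (left) and adult (right) stroma, on separate x axes, without and with the replicate block. Filled points passed an adjusted p of 0.05: Dusp2 in both embryonic fits, Dusp10 and Dusp16 in the blocked embryonic fit and Dusp1 in the blocked adult fit.

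Levels can be compared between genes only per length, and CPM per kb of merged exon was used for this. In embryonic PBS the means were 48.0 ± 21.5 for Dusp4, 34.4 ± 6.96 for Dusp1, 26.5 ± 20.8 for Dusp6, 18.7 ± 13.8 for Dusp5, 8.63 ± 2.16 for Dusp10, 5.48 ± 1.03 for Dusp16, 3.36 ± 0.688 for Dusp8 and 0.249 ± 0.0290 for Dusp2 (CPM per kb, SD, n = 3). The adult PBS order was the same, with 63.5 ± 10.9 for Dusp4 and 57.4 ± 10.7 for Dusp1 at the top and 2.88 ± 0.829 for Dusp8 and 0.142 ± 0.0574 for Dusp2 at the bottom. In embryonic PBS neighbours among Dusp4, Dusp1, Dusp6, Dusp5 and Dusp10 lay within each other's spread and changed places between libraries. In adult PBS Dusp4 and Dusp1 lay within each other's spread and above the other members. Dusp16, Dusp8 and Dusp2 held the last 3 places in this order in all 6 PBS libraries. With LPS, Dusp2 came first in embryonic library 3 and sixth in embryonic library 2. It stayed last in the other 4 LPS libraries, in which places changed among Dusp5, Dusp6, Dusp10 and Dusp16.

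The 8 genes together summed to 145 ± 56.6 CPM per kb in embryonic PBS and 180.1 ± 40.0 in embryonic LPS (SD, n = 3). In adult libraries the sum was 185 ± 39.1 with PBS and 162 ± 33.5 with LPS. Both differences between group means were smaller than the SD of the libraries. Within same-numbered pairs, which were not tested, the sum was higher with LPS in 3 of 3 embryonic pairs (differences of 6.4, 15.7 and 81.9 CPM per kb) and lower in 3 of 3 adult pairs (-30.9, -19.1 and -16.8 CPM per kb). The make-up also changed, in that Dusp2 was 0.119% to 0.236% of the summed CPM per kb in embryonic PBS and 2.65%, 6.29% and 38.3% in embryonic LPS libraries 1, 2 and 3. It held 3.77, 13.95 and 67.4 CPM per kb in those LPS libraries and 0.2795, 0.245 and 0.222 in the PBS libraries. The higher embryonic sums with LPS thus include the rise of Dusp2. In adult LPS the share of Dusp2 was 0.272% to 0.761%. The share of Dusp1 was 28.1% to 34.8% in adult PBS and 19.0% to 26.4% in adult LPS, and these ranges did not overlap.

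**Figure D4:**
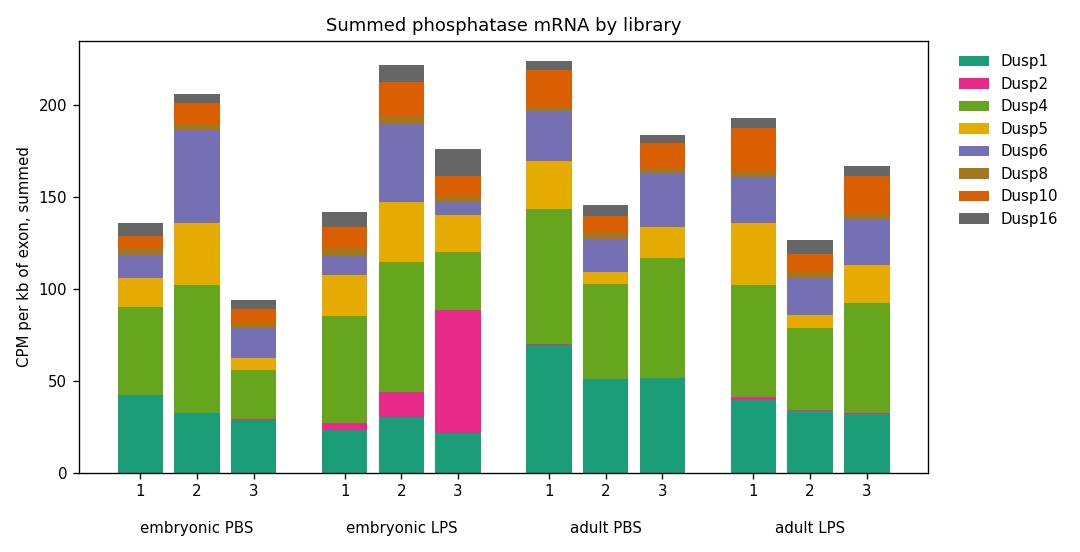
Summed CPM per kb of merged exon of the 8 phosphatase genes in each of the 12 libraries, stacked by gene. Dusp4 is the largest segment in 10 libraries, and Dusp2 takes 38.3% of the bar in embryonic LPS library 3.

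Between stages, Dusp1 measured lower in embryonic than in adult libraries with either treatment, a difference that the fit without the block did not call. With PBS the embryonic libraries lay between 57.4 and 84.0 CPM and the adult ones between 101 and 139 CPM, without overlap, and the difference was -0.74 (SE 0.19, adjusted p = 0.0616, edgeR). It was called by DESeq2 (adjusted p = 0.00741), in a fit with 760 genes called higher and 792 lower in embryonic cells, of 13006. The likelihood ratio test also called it (adjusted p = 0.0186), with 570 genes called higher and 607 lower, of 13038. With LPS the groups were again apart, and the difference of -0.49 (SE 0.19, adjusted p = 0.169) was not called. Dusp2 with PBS was also apart between the stages, at the 5 to 15 counts given above, with a difference of 0.83 (SE 1.08, adjusted p = 0.753). No member was called with PBS, where 4.08% of tested genes were called, and Dusp1 was the only one at an unadjusted p under 0.05, beside 19.8% of tested genes.

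With LPS 1 of 8 members, Dusp2, was called between the stages, beside 5.31% of tested genes. That call was lost without adult LPS library 1, 2 or 3 (adjusted p = 0.0535, 0.0683 and 0.0903) and with the LPS groups fitted alone (adjusted p = 0.0991). Dusp16 was higher in all 3 embryonic LPS than in all 3 adult LPS libraries, with a difference of 0.74 (SE 0.24, adjusted p = 0.104, edgeR). DESeq2 called this difference (adjusted p = 0.0494), in a fit with 994 genes called higher and 710 lower in embryonic cells, of 13006. Dusp8 was apart in the same direction, by 0.52 (SE 0.23, adjusted p = 0.213). Groups did not overlap between the stages for 2 members with PBS, beside 24.3% of tested genes, and for 4 members with LPS, beside 25.1%. Dusp10 had the reverse order, with a mean of 24.1 CPM in embryonic and 39.6 CPM in adult PBS, but its groups overlapped and the difference of -0.72 (SE 0.39, adjusted p = 0.352) was not called. It was called with the number as a block across stages and number 2 left out, at -1.18 with PBS (adjusted p = 0.0148, edgeR). The same fit called it with LPS (-1.025, adjusted p = 0.0214). With PBS that fit called 669 genes higher and 1073 lower in embryonic cells, of 13338, and with LPS 775 and 994. For Dusp4, Dusp5 and Dusp6 the stage differences in the fit of all 12 libraries without the block lay between -0.41 and 0.27. None was called there and each was near or below its SE.

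The other genes of the pathway were counted by list, which give the kinases that these phosphatases act on and the feedback genes that sit beside them. Without the block, no gene of any of the 9 lists was called under LPS in either stage, beside 2.75% of all tested genes in embryonic and 0.606% in adult cells. With the block, the embryonic median of the list of other ERK feedback and output genes was 0.22 on the log2 scale, beside 0.00 for all tested genes. The adult median of this list was as large, 0.24 beside -0.009 for all tested genes. In embryonic cells 12.5% of all tested genes were called in either direction in that fit, and 4 of the 13 tested genes of this list were called upward. They were Ier3 (1.86, SE 0.18, adjusted p = 0.00042, edgeR), an immediate-early survival gene, Fosl1 (1.49), an AP-1 subunit, Phlda1 (0.67) and the receptor tyrosine kinase gene Epha2 (0.44). In adult cells 1 of the 13 was called, Ier3, at 1.85 (SE 0.18, adjusted p = 0.000961), beside 6.20% of all tested genes. Ier3 averaged 96.5 ± 71.5 CPM in embryonic PBS, 309 ± 141 CPM in embryonic LPS, 73.7 ± 5.03 CPM in adult PBS and 269 ± 61.8 CPM in adult LPS (SD, n = 3).

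The calls that follow are from the blocked fit, in which 12.5% of all tested genes were called in embryonic and 6.20% in adult cells. Among the p38 kinases, a family that holds substrates of DUSP1, DUSP10 and DUSP16, 2 of 4 were called in embryonic cells, in opposite directions. Mapk11 rose by 0.90 (SE 0.19) and Mapk14 fell by 0.38 (SE 0.10). None of the 3 ERK genes and none of the 2 JNK genes tested was called in either stage. Of 7 MAP kinase kinases, Map2k3, an activator of p38, was called upward in adult cells (0.49, SE 0.11). Of 10 kinases downstream, Mapkapk3 rose in embryonic (0.37) and adult cells (0.49), and Mknk1 fell by 0.42 in embryonic cells. The other phosphatases of MAP kinases held 1 call of 5 genes tested, a fall of Ptpn7 by 1.82 (SE 0.26, adjusted p = 0.00363, edgeR) in embryonic cells. Ptpn7 encodes a tyrosine phosphatase of haematopoietic cells, and it averaged 9.64 ± 10.3 CPM in embryonic PBS and 2.31 ± 1.58 CPM in embryonic LPS, in the libraries with the macrophage marker sums given above. None of the 11 atypical dual-specificity phosphatases tested was called. The remaining MAP kinase phosphatases, Dusp7 and Dusp9, were not called either. Dusp7 measured 19.9 ± 3.63 CPM in adult PBS and 33.6 ± 14.3 CPM in adult LPS, a blocked difference of 0.69 (SE 0.19, adjusted p = 0.0805).

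**Figure D5:**
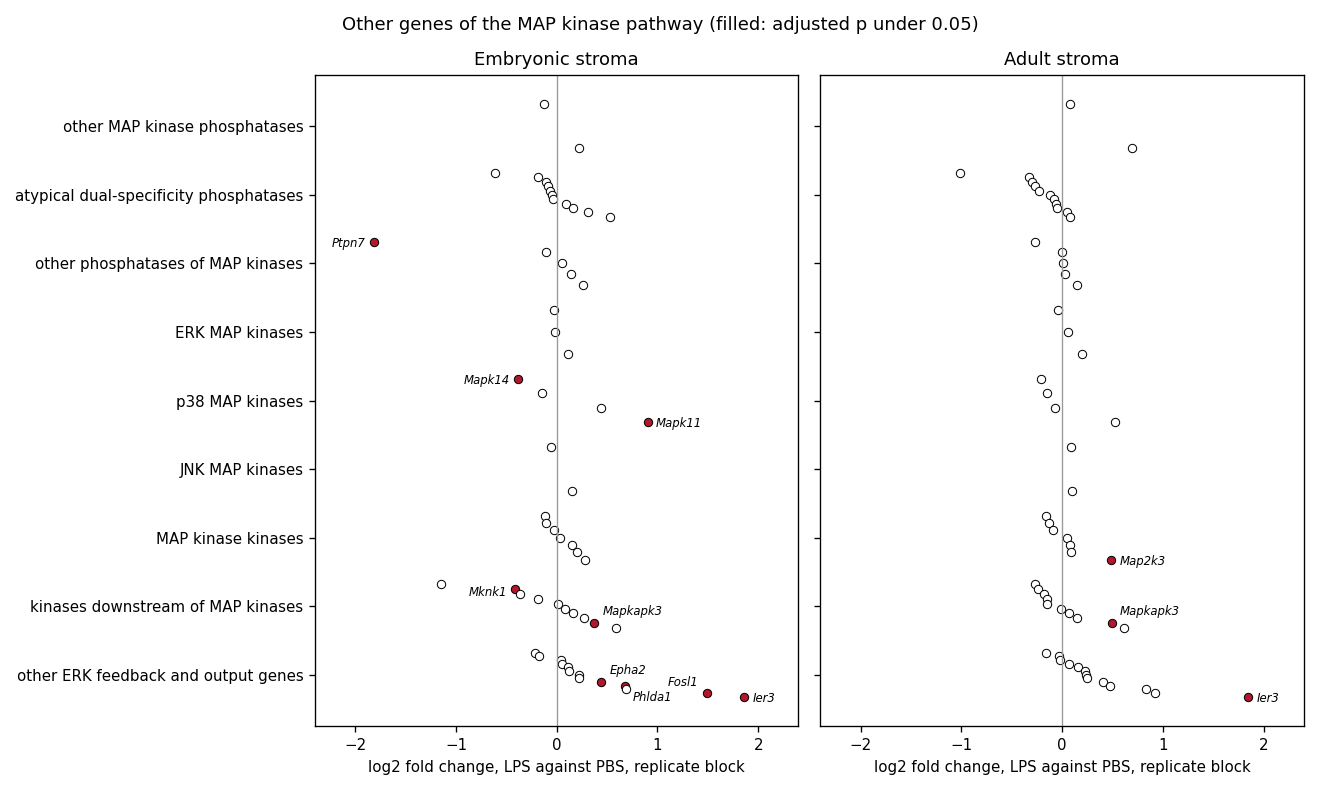
Blocked log2 fold change of LPS against PBS for each tested gene of 9 MAP kinase pathway lists in embryonic (left) and adult (right) stroma. Filled points passed an adjusted p of 0.05, and Ier3 is the gene farthest to the right in both stages.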

How the data were processed

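The authors trimmed 75-base single-end reads from stranded polyA libraries, mapped them to GRCm38.p6 (mm10 in the labels) with STAR and deposited raw read counts per gene for each library. The gene annotation is not given in the sources used here. The deposited counts of the library's strand (the last column, in which the other strand held 1.14% to 1.98% of gene counts) were used. The 4 rows per file that name no gene, 17.5% to 19.9% of the column total, were left out. Genes with CPM above 0.5 in all libraries of a group were kept (13038 of 23329 listed), scaled by TMM and tested with edgeR 4.0.16 (R 4.3.3, quasi-likelihood test) in 1 model of the 4 groups, with Benjamini-Hochberg adjustment. DESeq2 1.42.0 and the likelihood ratio test were alternatives, and the edgeR quasi-likelihood fits were tested on simulated data. Deviations of same-numbered LPS and PBS libraries correlated at 0.610 to 0.850 in each stage. The labels do not say that same-numbered libraries come from the same culture, and the pairing used here rests on this correlation. CPM values were also divided by merged exon length (CPM per kb). Exon counts and lengths came from GENCODE transcripts matched to RefSeq, and gene positions and promoters came from RefSeq. No 2 libraries of a group were alike within sampling noise. All 8 members are named, with pathway genes called under LPS (at most 4 per list) and the 3 genes most like Dusp2 in pattern. The members and lists were chosen with earlier results of these data known. Separate cultures are the replicates. Without the block, p-values measure the spread between libraries of a group, with same-numbered LPS and PBS libraries treated as independent. With the block within a stage, LPS p-values measure the spread that remains after the level of each same-numbered pair is fitted.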

Additional observations from a re-analysis of the deposited data

Results flagged for a closer look

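Dusp4 stood out because its LPS response had opposite directions in the stages: 3 of 3 embryonic pairs were higher and 3 of 3 adult pairs lower with LPS. The embryonic response minus the adult response was 0.363 on the log2 scale (SE 0.50, adjusted p = 1.00, edgeR), and 0.39 (SE 0.10, adjusted p = 0.254) with the replicate block, so that the test of the difference was not passed in either fit.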

How the results depend on the processing

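Of the counts of members called in the 5 comparisons, 37 of 49 held under the other settings tried. In embryonic cells under LPS, where 1 member was called, the replicate block gave 3, DESeq2 and the likelihood ratio test 2 each and a fit of only the compared groups 0. In adult cells under LPS (0 called) the block and DESeq2 gave 1 each. Between stages with PBS (0 called) the block, DESeq2 and the likelihood ratio test gave 1 each. With LPS (1 called) DESeq2 gave 2, and a fit of only the compared groups and an adjusted p under 0.01 gave 0. With 1 library left out, or 1 replicate number left out of the blocked fit (an alternative chosen after seeing the data), the counts ranged from 0 to 4 in embryonic and 0 to 1 in adult cells under LPS, from 0 to 2 between stages with PBS and from 0 to 3 with LPS, and the interaction stayed at 0. The causes of these moves were not tested. For the stages compared, the block used the number across stages, where same-numbered libraries correlated at -0.306 to -0.0022 and so share a number only, and it moved Dusp1 with PBS past the threshold (adjusted p = 0.0273).

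Of 311 log2 fold changes of single members under the other settings, 2 reversed, both with the block and both uncalled: Dusp8 in adult cells under LPS at 0.006 and Dusp6 between stages with PBS at -0.265. With a library or number left out, 38 of 600 reversed, all uncalled. Another 13 kept their direction and became called, and 6 lost their call. The embryonic LPS difference ranged from -0.129 to 0.533 for Dusp4 and from -1.619 to 0.47 for Dusp6. The adult one ranged from -0.238 to 0.812 for Dusp5, from -0.271 to 0.055 for Dusp6 and from -0.149 to 0.243 for Dusp8. The interaction ranged from -0.407 to 0.841 for Dusp5, from -1.534 to 0.554 for Dusp6 and from -0.029 to 0.553 for Dusp10. The stage difference with PBS ranged from -1.015 to 0.913 for Dusp5, from -0.971 to 0.42 for Dusp6 and from -0.043 to 0.359 for Dusp16. With LPS it ranged from -0.502 to 0.266 for Dusp4, from -0.313 to 0.906 for Dusp5 and from -1.551 to 0.136 for Dusp6. The -1.551 of Dusp6, from the block without number 2, was called (adjusted p = 0.0198, edgeR). That fit called 775 genes higher and 994 lower in embryonic cells, of 13338. Without normalization factors the median embryonic LPS difference of all genes was -0.13. Depth limits Dusp2 with PBS, at 5 to 15 counts a library.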
